A study of Homo sapiens with 16 samples.

Results

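HOXB13 sites of LNCaP prostate cancer cells at which the deacetylase HDAC3 was also called, but where no open chromatin was called, numbered 6897 of 90813 control HOXB13 peaks on chromosomes 1 to 22 and X (7.59%, 95% Wilson interval 7.42 to 7.77). They were chosen by peak calls alone: a control HOXB13 peak that overlaps a control HDAC3 peak by 1 bp or more and overlaps no control ATAC-seq peak. They made up 56.7% (55.9 to 57.6) of the 12157 control HOXB13 peaks with HDAC3. They are called no-ATAC HDAC3 sites here, and they were set against 5260 sites with HDAC3 and an ATAC peak, 4090 sites with an ATAC peak and no HDAC3, and 74566 sites with neither.

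HOXB13 is a homeobox transcription factor that marks the prostate lineage and binds enhancers there together with the androgen receptor, FOXA1 and MEIS proteins. HDAC3 is the catalytic subunit of the NCOR and SMRT corepressor complexes and removes acetyl groups from histone tails. HDAC1 is a related deacetylase that works in other complexes, among them NuRD and SIN3. ATAC-seq reads chromatin that a transposase can enter, and acetylation of histone H3 at lysine 27 (H3K27ac) marks active enhancers and promoters.

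LNCaP is an androgen-sensitive line from a lymph node metastasis and PC-3 an androgen-independent line from a bone metastasis of prostate cancer. Per the labels, LNCaP cells were infected for 7 days with an shRNA against HOXB13 together with a lentivirus for the G84E form of HOXB13, with the same shRNA together with the wild-type form (WT), with the shRNA alone (knockdown), or with the control shRNA vector pGIPZ. The G84E and WT groups thus carry the shRNA as well, and the labels name no second hairpin. The PC-3 libraries are labelled with the same shRNA or with pGIPZ. HOXB13 was mapped in all 4 LNCaP groups, HDAC3 and ATAC-seq after knockdown and in the control, HDAC1 in the control, and in PC-3 HOXB13 in the control and H3K27ac after knockdown and in the control. Each group was 1 library, so no test between conditions was possible. Intervals are 95% intervals for counting error, or for the spread over peaks of 1 library in the case of medians, and say nothing of the spread between cultures. The amount of HOXB13 or HDAC3 protein was not measured in these libraries. The LNCaP H3K27ac libraries were not analysed here.

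Libraries held between 13.5 M and 47.2 M tags. The authors' peaks of HOXB13, HDAC1, HDAC3 and ATAC-seq had 1 width per library, 290 bp for control HOXB13, 471 bp for control HDAC3 and 96 bp for control ATAC-seq. The share of tags in peaks was 9.17% in control HOXB13, 7.63% in control HDAC3 and 2.46% in control ATAC-seq. This share depends on the number and width of the peaks as well, so it does not rank the 3 signals by enrichment. A site without an ATAC peak need not be closed. Tag counts below are normalized tag counts, the tags in a peak scaled to a library of 10000000 tags. Of the 6897 sites, 221 (3.20%) met a peak in 9 or more of the 12 lists. No input library entered the calling, per the file headers, and shares that rest on these 221 sites are given with and without them. Leaving them out does not replace an input, since background signal can also lie at sites that met fewer lists. The filter counts the very lists whose shares are compared, so it lowers those shares in part by construction.

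The tag counts that chose the sites are given as a description. HOXB13 had a median control tag count of 9.89 at the no-ATAC HDAC3 sites (quartiles 7.28 and 15.4), 11.1 at sites with HDAC3 and ATAC, 10.5 at sites with ATAC alone and 6.98 at sites with neither. Control HDAC3 had a median of 13.9 at the no-ATAC sites (quartiles 11.1 and 19), against 20.4 at sites with HDAC3 and ATAC. The sites were thus close to the ATAC-positive classes in HOXB13 strength and had less HDAC3. They lay over the whole range of HOXB13 strength, from 3.14% of the weakest of 10 equal groups of control HOXB13 peaks to 19.2% of the strongest. Across the 6897 sites, the control tag counts of HOXB13 and HDAC3 had a Spearman rank correlation of 0.16, in 2 libraries of the same cells with different antibodies.

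The edges of the choice were soft. The 66 sites that overlapped their HDAC3 peak by 10 bp or less had a median HOXB13 tag count of 9.16, and the 79 peaks without ATAC that missed an HDAC3 peak by 10 bp or less had one of 9.89. The 85 sites with an ATAC peak 10 bp away or less had a median HOXB13 tag count of 9.31, against 8.73 at the 109 HDAC3 sites that met their ATAC peak by 10 bp or less. An ATAC peak lay within 50 bp of 4.73% of the no-ATAC HDAC3 sites, within 500 bp of 12.8% and within 10000 bp of 28.8%. The same distances held an ATAC peak at 0.359%, 2.22% and 19.3% of the sites with neither. At 690 of the sites (10.0%) an ATAC peak lay under the wider HDAC3 peak beyond the HOXB13 peak.

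The choice required the HOXB13 and HDAC3 peaks to overlap, which by itself limits how far apart their centres can lie, so these distances are a description. The median distance between their centres was 98 bp at the no-ATAC sites (quartiles 42 and 191 bp), against 83 bp at sites with HDAC3 and ATAC, and 51.1% (49.9 to 52.3) of the no-ATAC sites had centres within 100 bp, against 58.3% (56.9 to 59.6). Nearly every site had an HDAC3 peak of its own, with 6894 HDAC3 peaks for 6897 sites. The sites were scattered: 6507 had no other within 10000 bp, and the other 390 fell into 192 groups of at most 3. By chromosome they made up from 4.85% (4.34 to 5.43) of the HOXB13 peaks of chromosome 4 to 15.8% (13.4 to 18.5) of those of chromosome 22. Chromosomes 19 (11.6%), 17 (10.4%), 16 (10.1%) and 20 (10.0%) followed chromosome 22, and chromosome X had 6.81%. The share of sites with HDAC3 and ATAC was likewise low on chromosome 4 (4.03%), and it was highest on chromosome 19 (16.9%), with 8.45% on chromosome 22.

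**Figure D1:**
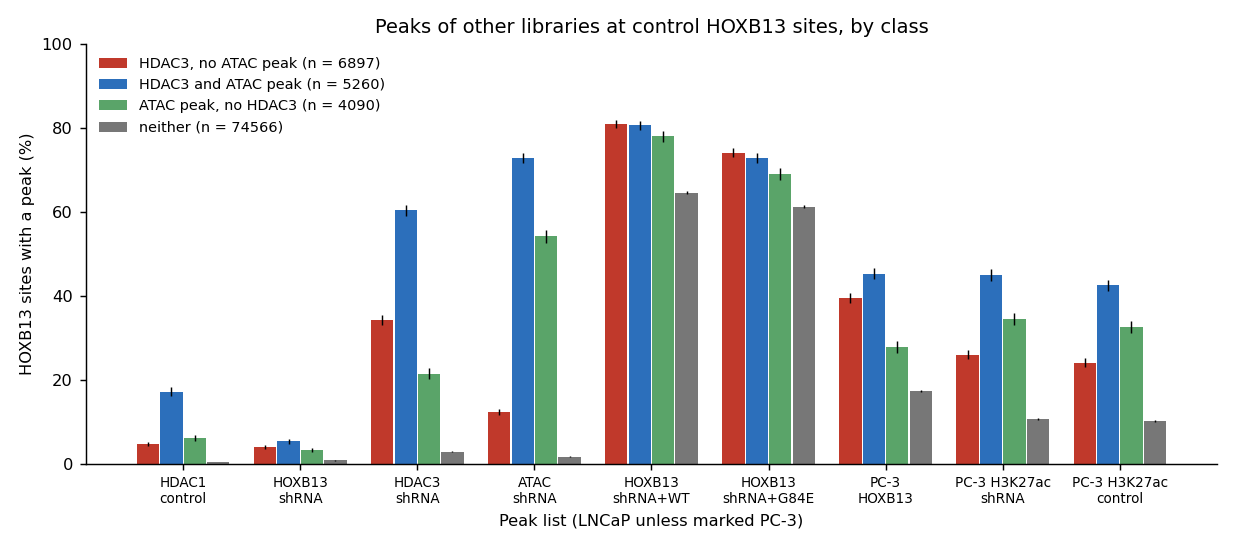
Share of control HOXB13 sites (%, y axis) with a peak in each of 9 lists that did not enter the choice (x axis), for 4 classes of site; bars are shares and whiskers 95% Wilson intervals for counting error. The no-ATAC HDAC3 sites (red) lie between the sites with HDAC3 and ATAC and the sites with neither for HDAC3 and ATAC after knockdown and for PC-3 H3K27ac.

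At nearly all of these sites no HOXB13 peak was called after knockdown. Over the whole library, 2.13% of HOXB13 tags lay in peaks after knockdown, against 9.17% in the control. After knockdown 278 of 6897 (4.03%, 3.59 to 4.52) still had a HOXB13 peak, where 1.38% of all control HOXB13 peaks did. The shares of the other classes were 5.29% with HDAC3 and ATAC, 3.18% with ATAC alone and 0.759% with neither. Without the sites called in 9 or more lists, 173 of 6676 (2.59%) kept a peak. At the 278 sites the median log2 ratio of HOXB13 tag count, knockdown over control, was −0.12 (95% CI −0.26 to 0.019). At 47 of them (16.9%) it was 1 or above, a level reached by 8.55% of all control peaks called in both libraries.

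The few sites that kept HOXB13 differed from the rest in the company they had. Of the 278, 48.2% (42.4 to 54.1) had an HDAC1 peak, against 2.73% (2.37 to 3.16) of the 6619 sites that lost HOXB13. Without the sites called in 9 or more lists these shares were 38.2% and 1.94%. HDAC3 was called after knockdown at 77.0% of the 278 and 32.4% of the 6619, and 65.3% and 31.3% without the sites in 9 or more lists. Control PC-3 H3K27ac lay at 58.3% of the 278 and 22.6% of the 6619, and at 34.1% and 21.2% without the sites in 9 or more lists. Their median control tag counts were 11.8 and 9.89 for HOXB13 and 27.2 and 13.9 for HDAC3, without matching on strength.

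Regions named here and below are the most extreme of each comparison among sites outside chromosome 8 that met fewer than 9 lists, and for ratios those with a tag count of at least the median. They were picked as extremes, which their intervals leave out of account. The 3 strongest in HOXB13 after knockdown come first. On chromosome 21 at 11186484 to 11186774, HOXB13 had 719.4 tags after knockdown and 336.7 in the control (log2 ratio 1.10, 95% CI 1.00 to 1.19), with 279.3 for G84E and 289.8 for WT. HDAC3 had 118.6 tags there after knockdown and 121.5 in the control, and HDAC1 had 318.8. A pair of neighbouring sites on chromosome 22 came next. At 18883711 to 18884001 HOXB13 had 325.0 tags after knockdown and 174.6 in the control (log2 ratio 0.90, 0.76 to 1.04). At 18879874 to 18880164 it had 293.0 and 180.4 (log2 ratio 0.70, 0.56 to 0.84), with 57.8 HDAC3 tags after knockdown and 92.8 in the control. At these 3 sites the HOXB13 antibody signal was higher after knockdown than in the control. No input library entered the calling, so background signal at them cannot be told apart from HOXB13 binding.

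HDAC1 divided the sites further. An HDAC1 peak lay at 315 of them (4.57%, 4.10 to 5.09), where 1.9% of all control HOXB13 peaks had one. The sites with HDAC3 and ATAC had HDAC1 at 17.1%, which puts the no-ATAC sites at −12.5 percentage points (−13.7 to −11.4). The difference was −13.8 when the other class was weighted to the same HOXB13 strength over 10 equal groups. It was not weighted for control HDAC3 tag count, with medians of 13.9 at no-ATAC sites and 20.4 at sites with HDAC3 and ATAC. The sites with neither had HDAC1 at 0.343%. Of the 315 sites with HDAC1, 72.1% had HDAC3 after knockdown and 67.0% H3K27ac in PC-3, against 32.4% and 22% of the 6582 sites without HDAC1. The median control HDAC3 tag count was 26.9 at the 315 and 13.9 at the 6582, and these shares were not weighted for it. HOXB13 was called after knockdown at 42.5% of the 315 and 2.19% of the 6582. Without the sites called in 9 or more lists, 192 sites with HDAC1 were left, of which 34.4% kept HOXB13, 60.4% had HDAC3 after knockdown and 46.9% H3K27ac in PC-3, against 1.65%, 31.4% and 20.8% of the 6484 without it. WT HOXB13 was found at 74.6% (69.5 to 79.1) of the 315 sites with HDAC1 and 81.2% (80.2 to 82.1) of the 6582 without. After leaving out sites in 9 or more lists, a filter that itself counts WT and HDAC1 peaks, the shares were 60.4% and 80.9%.

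**Figure D2:**
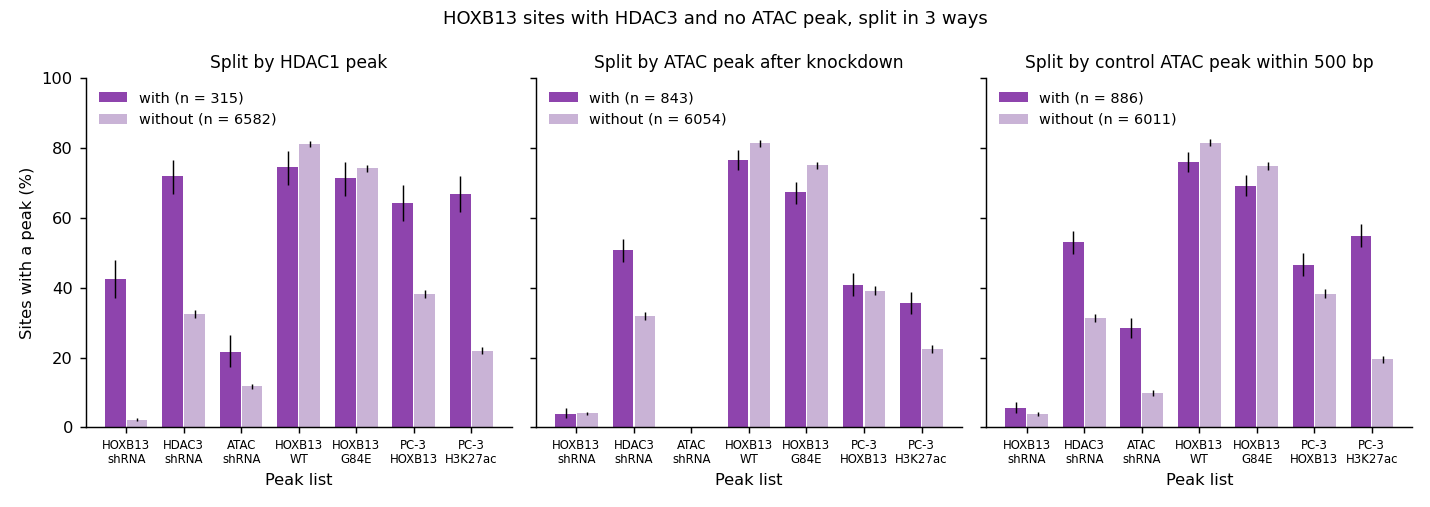
Share of the no-ATAC HDAC3 sites (%, y axis) with a peak in 7 lists (x axis), divided by an HDAC1 peak, by an ATAC peak after knockdown and by a control ATAC peak within 500 bp; bars are shares, whiskers 95% Wilson intervals, and the list used for a division is left blank in that panel. The 315 sites with HDAC1 kept HOXB13 at 42.5%, against 2.19% of the sites without it.

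HDAC3 was called again after HOXB13 knockdown at 2358 of the 6897 sites (34.2%, 33.1 to 35.3), where 9.36% of all control HOXB13 peaks had an HDAC3 peak in that library. At sites with HDAC3 and ATAC the share was 60.4% (59.1 to 61.7). The no-ATAC sites were 26.2 points below (difference −26.2, −27.9 to −24.5), and the difference was −16.2 when compared over 10 equal groups of control HDAC3 tag count. Where peaks counted as meeting only with centres within 100 bp, the share at no-ATAC sites was 19.3% and the difference −10.1. Both classes were chosen for a control HDAC3 peak, and the knockdown library took no part in that choice.

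To set sites with HOXB13 against sites without it, the same was counted from the HDAC3 peaks themselves, leaving out 690 sites whose HDAC3 peak reached an ATAC peak. Of all 33748 control HDAC3 peaks 47.6% were called after knockdown. Of the 6204 HDAC3 peaks at no-ATAC HOXB13 sites 35.2% (34.0 to 36.4) were, against 32.5% (31.7 to 33.3) of 13509 HDAC3 peaks with neither HOXB13 nor ATAC. That difference of 2.66 percentage points (1.24 to 4.09) was −0.293 at equal HDAC3 strength. HDAC3 peaks with ATAC and no HOXB13 were called again at 68.6%, or 56.5% when weighted to the strength of the no-ATAC sites. At equal strength the share thus differed by −21.3 points from HDAC3 peaks with ATAC alone, and by less than 1 point from those with neither.

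By HDAC3 strength, the no-ATAC HDAC3 peaks with and without HOXB13 had similar shares, with no constant order. In the weakest of 10 equal groups by control HDAC3 tag count 17.8% (15.2 to 20.7) of peaks with HOXB13 and 16.9% (15.4 to 18.6) of those without were called again. In the seventh group the shares were 41.7% (37.9 to 45.7) with HOXB13 and 46.6% (43.7 to 49.6) without, and in the ninth 57.6% (52.4 to 62.6) with and 63.9% (59.9 to 67.8) without. In the strongest group the order was the other way, 81.7% (76.8 to 85.8) with HOXB13 and 77.9% (73.3 to 81.9) without. The intervals of these pairs overlap, and 10 such groups were looked at.

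**Figure D3:**
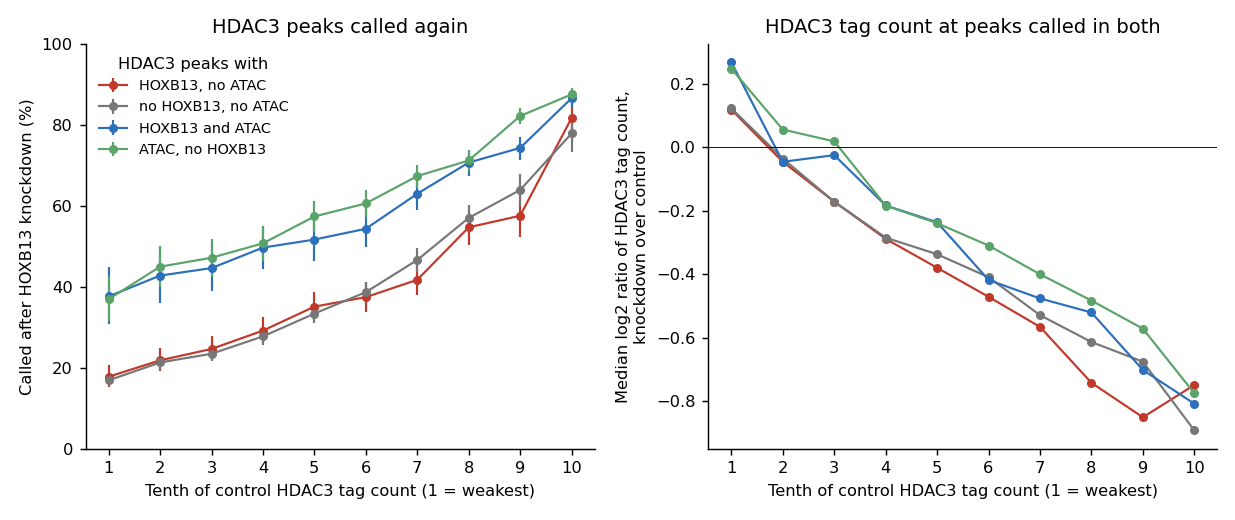
Left, HDAC3 peaks called again after HOXB13 knockdown (%, y axis, whiskers 95% Wilson intervals) in 10 equal groups of control HDAC3 tag count (x axis, weakest left); right, median log2 ratio of HDAC3 tag count, knockdown over control, at peaks called in both. Peaks at no-ATAC HOXB13 sites (red) run close to peaks with neither HOXB13 nor ATAC (grey), and both lie under the 2 classes with ATAC in every group on the left, with all 4 between 77.9% and 87.5% in the strongest.

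Where HDAC3 was called in both libraries, its median tag count was lower after knockdown in each class of site. At the 2358 no-ATAC HDAC3 sites the median log2 ratio was −0.43 (95% CI −0.45 to −0.41), against −0.54 (−0.56 to −0.52) at sites with HDAC3 and ATAC. Peaks of the knockdown library were narrower, 365 bp against 471 bp in the control (−0.37 as a log2 ratio), and as tags per bp the medians were −0.059 and −0.17. The share of all HDAC3 tags in peaks was also lower after knockdown (5.08%, against 7.63% in the control). That share depends on peak width too, and on peak number, which was 30993 after knockdown and 33964 in the control. With 1 library each, lower occupancy and lower enrichment of the library cannot be told apart. Counted from HDAC3 peaks, the median was −0.42 at no-ATAC HOXB13 sites, −0.35 at peaks with neither HOXB13 nor ATAC, −0.54 with both and −0.46 with ATAC alone. In the weakest of the 10 groups of HDAC3 strength it was above 0, at 0.12 both at no-ATAC HOXB13 sites and with neither. In the eighth group it was −0.74 at no-ATAC HOXB13 sites and −0.61 with neither, and in the ninth −0.85 and −0.68, while in the third both were −0.17. In the strongest group the order was the other way, −0.75 and −0.89. The groups were cut on the control tag count, which is also the denominator of the ratio, and only peaks called again enter. The trend from weak to strong groups is thus set in part by the grouping and is not read as a result of the knockdown.

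A log2 ratio of −1 or below was found at 328 (15.0%) of the 2183 HDAC3 peaks at no-ATAC HOXB13 sites called in both libraries, close to the 15.3% of all HDAC3 peaks called in both. A log2 ratio of 1 or above was found at 22 of them (1.01%), where 0.411% of all such peaks had one. The largest fall was on chromosome 1 at 155053287 to 155053577, with 76.8 HDAC3 tags after knockdown and 523.6 in the control (log2 ratio −2.77, 95% CI −2.99 to −2.55). HOXB13 was weak at that site, with 11.3 tags for G84E, 9.68 for WT and 9.02 in the control. The site on chromosome 12 at 116201980 to 116202270 had 11 HDAC3 tags after knockdown and 68.2 in the control (log2 ratio −2.63, −3.26 to −2.05). The site on chromosome 19 at 2783587 to 2783877 had 30.4 and 185.0 (log2 ratio −2.61, −2.97 to −2.26), and lay in PC-3 H3K27ac regions after knockdown and in the control. None of the 3 had an HDAC1 peak, or a HOXB13 or ATAC peak after knockdown. Most of the 6897 sites lacked these too, with shares of 4.57%, 4.03% and 12.2%.

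The 3 largest rises in HDAC3 had other peaks that most of the sites lacked. On chromosome 17 at 19349685 to 19349975 HDAC3 had 52.8 tags after knockdown and 17.6 in the control (log2 ratio 1.58, 95% CI 1.06 to 2.14). On chromosome 10 at 98510029 to 98510319 it had 86.3 and 34.8 (log2 ratio 1.31, 0.93 to 1.71), and on chromosome 7 at 100550687 to 100550977 it had 30.8 and 14.8 (log2 ratio 1.06, 0.45 to 1.69). Each of these 3 also had an HDAC1 peak and a HOXB13 peak after knockdown, with 6.57 HOXB13 tags after knockdown and 10.2 in the control on chromosome 17, 14.6 and 18.0 on chromosome 10, and 22.9 and 10.8 on chromosome 7. Each met 8 of the 12 lists, and none had a PC-3 H3K27ac region.

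An ATAC peak appeared after knockdown at 843 of the 6897 sites (12.2%, 11.5 to 13.0), where 8.95% of all control HOXB13 peaks had one. The share was 72.9% at sites with HDAC3 and ATAC and 54.2% at sites with ATAC alone, which were chosen for a control ATAC peak. Sites with neither, chosen like the no-ATAC HDAC3 sites for having none, had an ATAC peak after knockdown at 1.65% (1.56 to 1.74), or 2.51% when weighted to the same HOXB13 strength. The difference of 10.6 points (9.81 to 11.4) was 9.71 at equal HOXB13 strength and 8.41 when sites with a control ATAC peak within 500 bp were left out of both classes. The ATAC libraries held 25.5 M tags after knockdown and 36.1 M in the control, and a site missed in the control cannot be told apart from one that opened.

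The ATAC peaks that appeared were weak, and HDAC3 was called there more often than at the other sites. Their median tag count after knockdown was 5.10, equal to that at sites with neither and under the 7.06 at sites with HDAC3 and ATAC. HDAC3 was called after knockdown at 50.8% (47.4 to 54.1) of the 843 sites with an ATAC peak after knockdown, against 31.9% (30.7 to 33.1) of the 6054 without. Their control HDAC3 tag count was also higher, with medians of 17.6 and 13.4, and the share was not weighted for that. Without the sites in 9 or more lists the shares were 44.4% of 726 and 30.7% of 5950. PC-3 H3K27ac lay at 35.6% of the 843 and 22.4% of the 6054, and at 25.3% and 21.1% without those sites. G84E was found at 67.4% of the 843 and 75.1% of the 6054, and WT at 76.6% and 81.5%. At 4067 sites (59.0%) none of HOXB13, HDAC3 and ATAC was called after knockdown. The share with none was not counted over all control HOXB13 peaks. Taken singly, the 3 were called after knockdown at 1.38%, 9.36% and 8.95% of all control HOXB13 peaks, each less often than at the no-ATAC HDAC3 sites.

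The strongest ATAC peaks after knockdown were on chromosome 6 at 125518884 to 125519174, with 18.4 ATAC tags, and on chromosome 7 at 6388625 to 6388915, with 17.7. HDAC3 had 17.5 tags after knockdown and 23.2 in the control at the first, and 25.5 and 30.1 at the second. HOXB13 had 7.28 control tags at the first, where neither form was found again, and 5.53 at the second, where WT had 5.46. The third, on chromosome 3 at 98620680 to 98620970, had 17.3 ATAC tags. Its control HDAC3 peak had 9.74 tags, and no HDAC3 peak was called there after knockdown. All 3 lay in PC-3 H3K27ac regions.

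HOXB13 peaks were found at most of the sites in the 2 libraries with re-expressed HOXB13. These libraries had more peaks on chromosomes 1 to 22 and X, 190628 with G84E and 189651 with WT, against 90813 in the control. The part of these peak numbers in the shares below was not tested. G84E was found at 5113 (74.1%, 73.1 to 75.2) and WT at 5578 (80.9%, 79.9 to 81.8), where 63.2% and 67.4% of all control HOXB13 peaks were found. Both forms were found at 68.6%, G84E alone at 5.51%, WT alone at 12.3% and neither at 13.6% (12.8 to 14.4). Sites with HDAC3 and ATAC had close to the same shares, 67.0%, 5.86%, 13.6% and 13.5% in that order. Sites with neither HDAC3 nor ATAC had 51.5%, 9.71%, 13.1% and 25.7%. Among the no-ATAC HDAC3 sites, those with neither form were weaker, with a median control HOXB13 tag count of 6.69, against 12.2 where both were found. In 5 equal groups of the sites by control HOXB13 tag count, from weakest to strongest, G84E was found at 46.2%, 59.8%, 77.7%, 88.8% and 98.3%, and WT at 57.7%, 71.3%, 83.2%, 93.3% and 98.9%.

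Much of the distance from sites with neither was absent at equal strength. Sites with neither HDAC3 nor ATAC had WT at 64.6%. The no-ATAC HDAC3 sites stood 16.3 points above them (15.3 to 17.2), and 3.21 at equal HOXB13 strength. For G84E the share was 61.2%, a difference of 13.0 points (11.9 to 14.0), and −0.039 at equal strength. Against sites with HDAC3 and ATAC the differences were 1.24 points for G84E (−0.337 to 2.83) and 0.248 for WT (−1.16 to 1.67), and at equal HOXB13 strength 4.32 and 2.75.

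**Figure D4:**
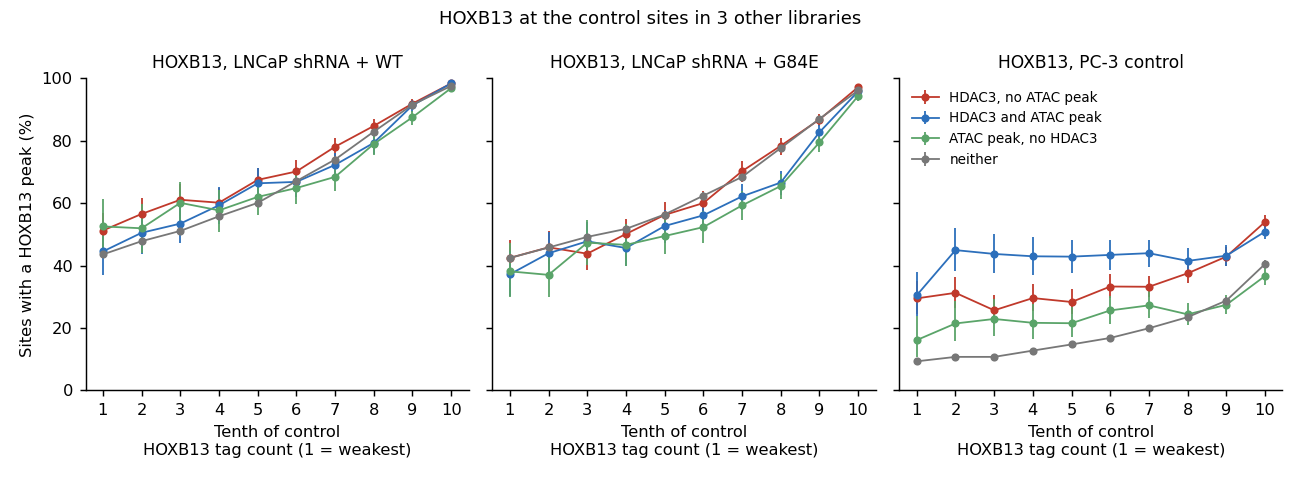
Share of control HOXB13 sites (%, y axis) with a HOXB13 peak in the WT, the G84E and the PC-3 library, in 10 equal groups of control HOXB13 tag count (x axis, weakest left), for 4 classes of site; points are shares and whiskers 95% Wilson intervals. In PC-3 both classes with HDAC3 lie above the 2 without it in the strongest group, with 54.0% at no-ATAC HDAC3 sites and 40.5% at sites with neither.

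At sites called in each pair of libraries, G84E had fewer tags than WT. The median log2 ratio, G84E over WT, was −0.31 (95% CI −0.33 to −0.30) at 4733 no-ATAC HDAC3 sites, −0.35 (−0.37 to −0.34) with HDAC3 and ATAC, −0.31 with ATAC alone and −0.18 (−0.18 to −0.17) with neither. A ratio of −1 or below was found at 243 sites (5.13%), where 4.0% of all control HOXB13 peaks found with both forms had one, and a ratio of 1 or above at 13 (0.275%), where 0.608% had one. Peaks found with both forms were also put into 10 equal groups by the mean of their G84E and WT tag counts, not by control HOXB13. The difference from sites with neither was present in each group. It went from −0.10 against −0.059 in the weakest to −0.36 against −0.31 in the strongest, with −0.31 against −0.16 in the fifth. Relative to the control, the median log2 ratio was −0.16 (−0.17 to −0.14) for G84E and 0.10 (0.082 to 0.12) for WT. For G84E over control, 328 sites (6.42%) had a log2 ratio of −1 or below, where 3.49% of all peaks found in both had one, and 148 (2.89%) one of 1 or above, where 6.43% had one. For WT over control, 130 sites (2.33%) had −1 or below against 1.48% of all, and 381 (6.83%) 1 or above against 10.3% of all. The share of tags in peaks was 15.6% with G84E and 17.1% with WT, and its part in these ratios was not tested.

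The 3 sites with the highest ratio of G84E over WT included chromosome 2 at 159940115 to 159940405, with 25.1 tags for G84E, 11.4 for WT and 14.6 in the control (log2 ratio 1.14, 95% CI 0.63 to 1.67). The others were chromosome 2 at 122156674 to 122156964, with 22.4, 11.4 and 12.8 tags, and chromosome 12 at 1194466 to 1194756, with 22.2, 11.9 and 15.7. The lowest was chromosome 12 at 116966900 to 116967190, with 7.24 tags for G84E, 23.6 for WT and 18.6 in the control (log2 ratio −1.70, −2.33 to −1.11). The same site had 94.7 HOXB13 tags in PC-3. Next were chromosome 3 at 34427866 to 34428156, with 6.11, 19.9 and 8.15 tags, and chromosome 2 at 8260416 to 8260706, with 6.34, 19.9 and 13.4. Control HOXB13 lay between the forms at all 6.

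PC-3 cells, another prostate cancer line that expresses HOXB13, had a HOXB13 peak at 2717 of the sites (39.4%, 38.2 to 40.6), where 21.1% of all LNCaP control HOXB13 peaks had one. The share was 45.3% with HDAC3 and ATAC, 27.8% with ATAC alone and 17.3% with neither. At equal HOXB13 strength it was 44.6%, 27.4% and 24.6%, so the no-ATAC HDAC3 sites stayed 14.8 points above sites with neither and 12 above sites that had ATAC and no HDAC3. The PC-3 antibody was a different product from that used in LNCaP, per the labels. In 5 equal groups by LNCaP HOXB13 tag count the share went through 29.0%, 31.7%, 36%, 44.6% and 55.7%. In the weakest of 10 groups of all control peaks it was 29.5% at no-ATAC HDAC3 sites and 9.29% at sites with neither.

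PC-3 H3K27ac lay over 1793 of the sites after knockdown in PC-3 (26.0%, 25 to 27) and 1658 in the control (24.0%, 23 to 25.1), where 14.9% and 14.0% of all LNCaP control HOXB13 peaks were covered. Control shares were 42.5% with HDAC3 and ATAC, 32.5% with ATAC alone and 10.1% with neither, and 19.5% at no-ATAC HDAC3 sites with no ATAC peak within 500 bp. Within acetylated PC-3 regions, HOXB13 was bound in PC-3 at 68.5% (66.2 to 70.6) of the no-ATAC HDAC3 sites, 71.7% with HDAC3 and ATAC, 49.6% with ATAC alone and 43.6% (42.5 to 44.7) with neither. Outside them the shares were 30.2% (29.0 to 31.5), 25.8%, 17.3% and 14.4%. HOXB13 in PC-3 was more frequent at LNCaP sites with HDAC3 both inside and outside PC-3 acetylation. These shares were not weighted for LNCaP HOXB13 strength, which was lower at sites with neither. At the 1516 sites covered in both PC-3 H3K27ac libraries the median log2 ratio of region tag counts, knockdown over control, was 0.33 (95% CI 0.30 to 0.36), against 0.34 over all LNCaP control HOXB13 peaks covered in both. The tag counts were not divided by region length. The share of H3K27ac tags in regions was 46.2% after knockdown and 38.9% in the control. Its part in the ratio and in the shares covered was not tested.

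The strongest PC-3 HOXB13 peaks in acetylated regions were on chromosome 2 at 92307205 to 92307495 and at 2 sites on chromosome 10. The first had 970.3 HOXB13 tags in PC-3 and 582.0 in LNCaP. By the rule for named regions it was the strongest in HOXB13 and HDAC3 together, with 336.8 HDAC3 tags after knockdown and 425.7 in the control. Its LNCaP control HOXB13 peak was only 4.93-fold over local background, where calling required 4-fold. Without an input library, background signal at this site cannot be told apart from binding. On chromosome 10 at 36179209 to 36179499 HOXB13 had 392.6 tags in PC-3 and 24.7 in LNCaP, and at 76635687 to 76635977 it had 213.6 and 36.7. At the last of these, HDAC3 had 7.98 tags after HOXB13 knockdown and 18.5 in the control.

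The sites that were strong in both HOXB13 and HDAC3 were few, 31 of the 6897 having more than 100 tags of each. Among sites outside chromosome 8 that met fewer than 9 lists, the 5 strongest by summed rank were taken. Not all of them have more than 100 tags of each. They met between 6 and 8 of the 12 lists, and no input library entered the calling. Background signal at them thus cannot be told apart from binding. Of these 5, 3 are the sites on chromosomes 21 and 22 given above, with more HOXB13 tags after knockdown than in the control. The others are the chromosome 2 site and one on chromosome 9 at 68419584 to 68419874. The chromosome 9 site had HOXB13 tags of 212.3 with G84E, 265.9 with WT and 119.9 in the control. Its control HDAC3 peak had 126.1 tags, and no HDAC3 peak was called there after knockdown. The tag count is not known where no peak was called, so a fall in HDAC3 there was not shown. Strong sites that lost HOXB13 with the knockdown, had no HDAC1 and regained both forms were sought next, a choice made after these values were seen. On chromosome 9 at 129774092 to 129774382 HOXB13 had 58.6 tags with G84E, 80.0 with WT and 64.9 in the control, and no peak after knockdown. HDAC3 had 23.2 tags there after knockdown and 68.2 in the control. On chromosome 3 at 128101249 to 128101539 HOXB13 had 56.8 tags with G84E, 65.1 with WT and 44.5 in the control, and HDAC3 had 31.9 after knockdown and 84.4 in the control. On chromosome 12 at 46384615 to 46384905 HOXB13 had 24.2 tags with G84E, 46.9 with WT and 55.6 in the control, and HDAC3 had 48.3 after knockdown and 66.3 in the control. At all 3, HOXB13 was also bound in PC-3, with 53.9, 119.3 and 78.8 tags in the order given.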

How the data were processed

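Peak lists of 12 libraries were used, 1 library per group, with groups taken from the labels. Per the submitters' processing notes, Bowtie2, HOMER 4.2 and hg19 were used. The file headers record findPeaks calls by the authors for each library without an input library, in 10 lists in factor style (false discovery rate 0.001, 4-fold over the surrounding 10000 bp) and in 2 H3K27ac lists in histone style. The deposited signal is the normalized tag count, tags per 10000000. The deposited score was used only to rank peaks, the deposited fold over local background and the deposited p-value were not used for comparison, and other deposited HOMER columns only as quality measures. Whole tags were recovered from header totals (100% of values under 10 within 0.1 tags).

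Peaks met when they overlapped by 1 bp or more, and the highest tag count was used where several met. Shares have Wilson, differences Newcombe, medians order-statistic and tag ratios exact 95% intervals. Values at equal strength weight 10 equal groups of tag count by the sites described. Overlap and weighting were tested on simulated data. Python 3.11.15, pandas 2.3.3, scipy 1.17.1 and statsmodels 0.14.6 were used.

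Named regions followed a rule: outside chromosome 8, met by fewer than 9 lists, the 5 strongest in HOXB13 and HDAC3 together and the 3 most extreme in each comparison. Strong sites without HDAC1 were added after seeing the data. The sites, lists and rules were chosen with earlier results of these data known. Coordinates are hg19, as in the files. Genes, sequences and motifs at the sites were not analysed here, since the tables used here are of another build.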

Additional observations from a re-analysis of the deposited data

How the results depend on the processing

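The 3 differences and the HDAC3 log2 ratio kept their sign under the alternatives tried. The other results are shares or a count and have no sign. Differences that were recomputed only at equal strength did turn, from HDAC3 peaks with neither HOXB13 nor ATAC (2.66 points, −0.293 at equal strength) and for G84E from sites with neither (13.0 and −0.039). Of the values under alternatives, 23 of 72 alternative values stayed within the counting interval of the main value (for the count of sites, within 1.5 times). With peak centres within 100 bp the sites numbered 4244, and the shares were 3.16% for HDAC1, 19.3% for HDAC3 and 14.4% for ATAC after knockdown, 72.4% for WT, 66.0% for G84E and 36% for PC-3 HOXB13. The HDAC3 difference from sites with ATAC was then −10.1 points, and the ATAC and WT differences from sites with neither 12.5 and 17.5. With an overlap of 50% of the shorter peak the shares were 3.60% for HDAC1, 25.4% for HDAC3, 13.3% for ATAC, 76.8% for WT and 70.2% for G84E, and the HDAC3 and ATAC differences −19.1 and 11.7. In the better-scoring 50% of every list 3468 sites were left, with HOXB13 after knockdown at 5.25%, HDAC3 at 37.5%, ATAC at 9.80%, WT at 83.1%, G84E at 75.6%, PC-3 HOXB13 at 35.8% and H3K27ac at 20.3%. The differences were then −22.5 for HDAC3, 8.49 for ATAC and 8.60 for WT, and the HDAC3 log2 ratio −0.51. With no ATAC peak within 500 bp the shares were 3.34% for HDAC1, 31.4% for HDAC3, 9.83% for ATAC and 19.5% for H3K27ac, and the ATAC difference 8.41. Without peaks met by 9 or more lists they were 2.88% for HDAC1, 2.59% for HOXB13, 32.2% for HDAC3, 10.9% for ATAC, 37.5% for PC-3 HOXB13 and 21.6% for H3K27ac, with differences of −18.4 for HDAC3 and 9.23 for ATAC. At equal tag count the differences were −16.2 for HDAC3, 9.71 for ATAC and 3.21 for WT. As tag density the HDAC3 log2 ratio was −0.059. Chosen after seeing the data, leaving out sites whose HDAC3 peak met an ATAC peak gave 32.0% for HDAC3, 10.3% for ATAC and an HDAC3 difference of −28.4. The cause of these shifts was not tested. No paired analysis was possible because each group held 1 library.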
